A study of Homo sapiens with 8 samples.

Results

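The genes described here carry cells from G1 into S phase: the transcription factors E2F1, E2F2 and E2F3, the D cyclins CCND1 and CCND3, the E cyclins CCNE1 and CCNE2, the kinases CDK4 and CDK6, and the phosphatase CDC25A. Their m6A peaks were taken from 2 peak lists of U2OS cells, a human osteosarcoma line, by the gene name given for each peak. Of the 10 genes, 9 had a peak, with 11 of the 13219 peaks of the DF2 siRNA list and 7 of the 15730 peaks of the control list. No peak named CCNE2 was found in either list. The genes were chosen from the same lists, so the presence of their peaks is given as a description without a test.

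The DF2 siRNA group consisted of U2OS cells treated with siRNA against YTHDF2 (DF2), and the control group of U2OS cells labelled as control, with no further word on what the control received. Each group had 2 input libraries and 2 libraries of RNA immunoprecipitated with an antibody against m6A, all from fragmented cytoplasmic RNA. The siRNA libraries are numbered 1 and 2, but the labels leave unsaid whether the numbers mean different siRNAs or separate cultures. Each peak list belongs to both immunoprecipitates of its condition, so differences between the lists have no replicate check. Depth is unknown. Each peak has a fold enrichment (a ratio), a score of unstated meaning, and a −log10 value, all as deposited by the authors. The headers call the −log10 value that of an FDR for DF2 siRNA but of a p for control, although its lowest value was 1.30 in both lists. They rank peaks within a list, and no difference between lists is read from them. YTHDF2 itself carried 1 peak per list, with a score of 185 in DF2 siRNA cells and 4226 in control cells, which does not measure its mRNA.

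N6-methyladenosine (m6A) is the most common internal modification of mRNA and often lies near stop codons. YTHDF2 binds m6A in the cytoplasm and directs the bound mRNA to decay. In G1, D cyclins activate CDK4 and CDK6, which phosphorylate the retinoblastoma protein and so free E2F factors. E2F factors then switch on E cyclins, CDC25A and replication genes, and cyclin E with CDK2 starts S phase.

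RefSeq promoter windows (250 bases before to 50 after an annotated start, GRCh38.p14) were matched for 8 of the 10 genes, 12 windows in all, and not for CCND1 and CCNE2. Sequences are shown for the 3 genes whose peaks reached a matched window, since these peaks lie at or near an annotated transcript start. The 5′ UTR peak of CCND1 also spans an annotated start. Up to 30 bases are given 5′ to 3′ on the strand of the gene, with the bases from the annotated start onwards in capitals. The CCNE1 stretch lies at chr19:29811976-29812005 on the plus strand, the CCND3 stretch at chr6:41941794-41941823 on the minus strand and the E2F3 stretch at chr6:20401906-20401928 on the plus strand.
CCNE1: ctctgagccgggcgcAGGAGCAGCCGGCGC
CCND3: aggggcggggcgcctGTCAGGGAAGCGGCG
E2F3: GCCATTTTTCAGCTGCCGGCCGC

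The CCNE1 peak began 93 bases before the annotated start, and the downstream exon piece of the CCND3 peak 40 bases before a start that lies inside the gene. The E2F3 peak began 27 bases after the start. Peak lengths were whole multiples of 200 nt for 90.9% of DF2 siRNA peaks and 87.2% of control peaks, so 200 nt is called a bin here, although the peak caller is not given. Peak edges are not positions of methylated sites. GGACT, the most common form of the m6A consensus, was searched on both strands over all bases shared by peak and window. It occurred on neither strand in the 143 shared bases of CCNE1, the 90 of CCND3 or the 23 of E2F3. Among all 35116 RefSeq windows, the same stretch held it on the sense strand in 13.2% for the CCNE1 stretch, 8.61% for that of CCND3 and 2.14% for that of E2F3. On the other strand these shares were 12.4%, 8.09% and 1.92%. The windows were not matched for base content. The shared bases were 78.3% G or C in CCNE1, 77.8% in CCND3 and 65.2% in E2F3, against medians of 60.1%, 60% and 60.9% in the same stretches of all windows. The rarer forms of this motif, with A or C as the last base, were absent from the sense strand of all 3 stretches and from the other strand in CCND3 and E2F3, and occurred 1 time on the other strand in CCNE1. Among all windows, a rarer form lay in the CCNE1 stretch in 24.7% on the sense strand and 24.9% on the other, in the CCND3 stretch in 16.7% and 16.4%, and in the E2F3 stretch in 4.53% and 4.73%. GGACT and these rarer forms were first searched together, and were separated after that result was seen. Other forms of the m6A consensus were not searched. An absence says only that these letters are not in these windows.

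Of the 9 genes with a peak, 5 had peaks in both lists, E2F2, E2F3, CCND3, CDK6 and CDC25A. The other 4, E2F1, CCND1, CCNE1 and CDK4, had peaks in the DF2 siRNA list only, and 0 genes had peaks in the control list only. Among all 10506 gene names with a peak, 75.2% were in both lists, 5.76% in the DF2 siRNA list only and 19% in the control list only. These calls belong to the values from which the genes were chosen, so nothing is read from the difference. With p or FDR 100 times smaller, CDK4 alone of the 4 kept its peak, and in the upper 50% of the list by fold enrichment none of them did.

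The E2F genes encode the activating members of their family, which bind DNA together with a DP partner. E2F3 had the highest fold enrichment of the 9 genes in both lists. Its stop codon peak covered the same 1400 nt of 3 exon pieces on chromosome 6 (20486724 to 20491351, hg38) in both lists and was labelled coding, stop codon and 3′ UTR. It was listed at a fold enrichment of 83.0 with a score of 581 in DF2 siRNA cells, against 160 and 1863 in control cells. Within its own list 620 peaks stood above it by fold enrichment in DF2 siRNA and 92 in control. The 1184 nt of its last piece ended 2363 nt before the 3′ end of the RefSeq gene.

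E2F3 also carried a peak at its 5′ end, labelled coding, 5′ UTR and stop codon, in both lists. In DF2 siRNA cells it covered 800 nt (20401906 to 20403758) with a fold enrichment of 55.1 (score 132). In control cells it covered 600 nt (20401906 to 20402505) with 32.5 and 136. The 200 nt found in the DF2 siRNA list alone extended the first piece by 120 nt and added 80 nt that begin 65 bases after a second annotated start of E2F3. E2F3 has alternative first exons, so the joined bins need not lie on 1 transcript.

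E2F2 had 1 peak of 600 nt at the stop codon, on chromosome 1 (23509487 to 23510086), with identical edges in both lists. Its fold enrichment was 61.3 with a score of 484 in DF2 siRNA cells and 51.5 with a score of 883 in control cells. It stood at percentile 90.4 of its list by fold enrichment in DF2 siRNA and at percentile 80.3 in control. The 3′ end of the RefSeq gene lay 4275 nt beyond the peak.

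The E2F1 peak was listed in DF2 siRNA cells only. The peak covered 400 nt on chromosome 20 (33676586 to 33677110), 394 nt of the last exon piece and 6 nt of the piece before, and was labelled coding and 3′ UTR. It had a fold enrichment of 16.5, a score of 233 and a −log10 FDR of 2.999. The fold enrichment lay below the median of the DF2 siRNA list (17.7), whereas the score lay above its median (74). No control peak of any gene shared a base with it on either strand.

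**Figure D1:**
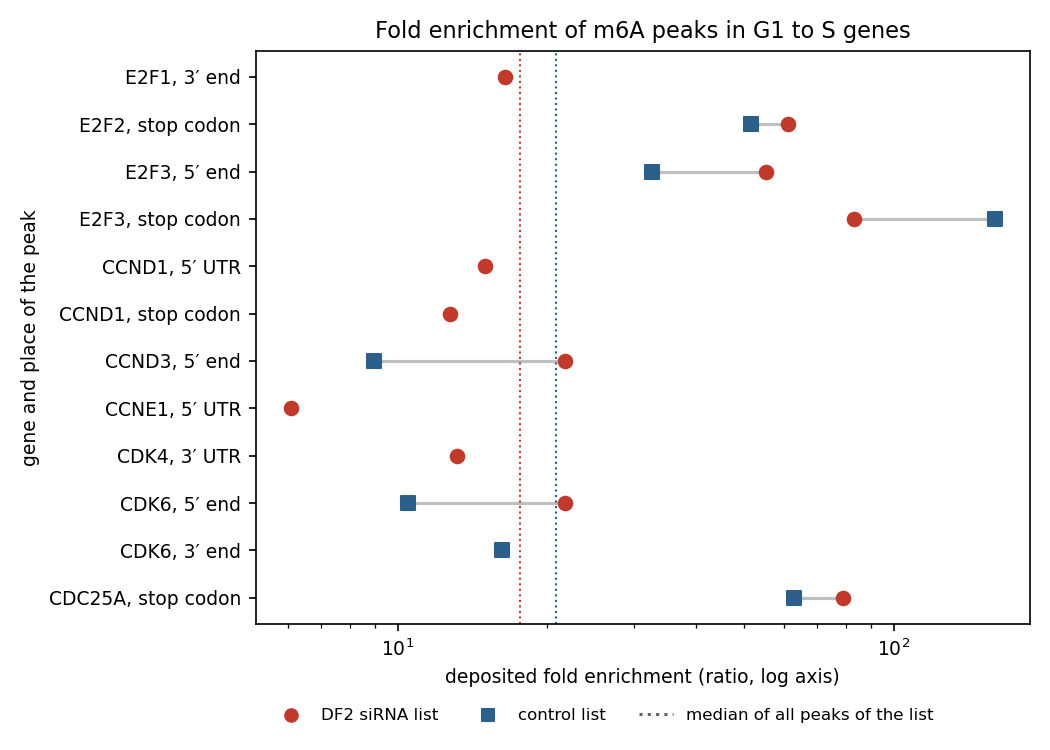
Deposited fold enrichment (x axis, ratio on a log scale) of each peak of the 9 genes (rows), with circles for the DF2 siRNA list, squares for the control list, a grey line where peaks overlap, and dotted lines at the medians of all peaks, 17.7 in DF2 siRNA and 20.8 in control. All peaks with a stop codon label in E2F2, E2F3 and CDC25A, the 5′ peak of E2F3 included, lie right of both medians, from 32.5 to 160, and the peaks of E2F1, CCND1, CCNE1 and CDK4 lie left of them, from 6.09 to 16.5.

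Among the cyclins, 3 of the 4 peaks of the DF2 siRNA list and the 1 peak of the control list lay at the 5′ end, with a 5′ UTR label. This label was carried by 25.9% of all DF2 siRNA peaks and 24.3% of all control peaks. E2F3 and CDK6 also had peaks with this label in both lists, so it was not particular to the cyclins. Nothing is read from so few peaks. CCND1, the D cyclin best known as an oncogene, had 2 peaks in DF2 siRNA cells and none in control cells. The first covered 200 nt of 5′ UTR on chromosome 11 (69641087 to 69641286), beginning 69 nt before the RefSeq gene, with a fold enrichment of 15.02, a score of 122 and a −log10 FDR of 2.60. The second covered 400 nt around the stop codon (69648168 to 69651444), 73 nt of one exon piece and 327 nt of the next, with 12.7, 252 and 1.91. Both scores exceeded the list median of 74, and both fold enrichments were below the list median. The lowest −log10 FDR in the list was 1.30, so the second peak lay close to it.

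CCND3, the other D cyclin with a peak, was found in both lists. In DF2 siRNA cells the peak covered 400 nt labelled coding and 5′ UTR (chromosome 6, 41941538 to 42010926), with a fold enrichment of 21.7 (score 72). In control cells it covered 200 nt labelled 5′ UTR (41941738 to 42010926), with 8.98 and 37, and its −log10 p of 1.53 was near the lowest in the list (1.30). All bases of the control peak lay in the DF2 siRNA peak: 89 nt of an upstream exon piece, and 111 nt of the piece that extended to 311 nt in DF2 siRNA.

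CCNE1, a partner of CDK2, had the lowest fold enrichment of these genes. It was found in DF2 siRNA only and covered 200 nt of 5′ UTR on chromosome 19 (29811898 to 29812097), with a fold enrichment of 6.09, a score of 6 and a −log10 FDR of 2.68. It stood at percentile 6.43 of its list by fold enrichment and 4.14 by score. CCNE2, its relative, could not be compared, having no peak.

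Counting peaks by label, 5 of the 11 DF2 siRNA peaks and 3 of the 7 control peaks carried a 5′ UTR label, beside 25.9% of all DF2 siRNA peaks and 24.3% of all control peaks. The exact 95% binomial (Clopper-Pearson) intervals were 16.7 to 76.6% in DF2 siRNA and 9.90 to 81.6% in control, and like all intervals given here they cover counting error only. A stop codon label was carried by 5 of 11 peaks in DF2 siRNA (16.7 to 76.6%) and by 4 of 7 in control (18.4 to 90.1%). Both counts follow the label and include the peak at the 5′ end of E2F3. They leave out the E2F1 peak and the 3′ peak of CDK6, which were labelled coding and 3′ UTR without a stop codon. Over all peaks the stop codon share was 43.7% in DF2 siRNA and 42.7% in control. With so few peaks, from genes chosen with these lists known, these intervals cannot decide whether the shares differ from those of all peaks.

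The kinases CDK4 and CDK6 are close relatives and both pair with D cyclins, and their peaks were listed at different places. CDK4 had 1 peak of 368 nt in the 3′ UTR (chromosome 12, 57747727 to 57748094) in DF2 siRNA cells only. It ended exactly at the 3′ end of the RefSeq gene. Its fold enrichment was 13.2, its score 23 and its −log10 FDR 3.79, the highest of the peaks of the 4 genes found in DF2 siRNA only.

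CDK6 had a 5′ peak in both lists and a 3′ peak in control only. The 5′ peak, labelled coding and 5′ UTR on chromosome 7, covered 600 nt in DF2 siRNA cells (92833123 to 92833904) with a fold enrichment of 21.7 (score 124). In control cells it covered 400 nt (92833123 to 92833522) with 10.5 and 149, at a −log10 p of 1.49. The DF2 siRNA peak reached 200 nt further upstream, over 168 nt of the same exon piece and a further 32 nt that lie 55 to 86 bases after an annotated start.

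The 3′ peak of CDK6 covered 600 nt in control cells (92614781 to 92618165), labelled coding and 3′ UTR, with a fold enrichment of 16.2, a score of 199 and a −log10 p of 3.10. It was the only one of the 7 control peaks without an overlapping DF2 siRNA peak on either strand. The 3′ end of the RefSeq gene lay 9860 nt beyond it, and no other CDK6 peak lay in that stretch in either list.

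CDC25A, which removes inhibitory phosphates from CDK2, had a strong stop codon peak in both lists on chromosome 3. In DF2 siRNA cells it covered 1000 nt in 3 exon pieces (48158263 to 48164371), with a fold enrichment of 79.0 (score 1073). In control cells it covered 800 nt in 1 piece (48158263 to 48159062), with 62.8 and 1350. By score it was the second highest of the peaks of these genes in control, after E2F3, and the highest in DF2 siRNA. Both peaks ended 1117 nt before the 3′ end of the RefSeq gene, and the DF2 siRNA peak reached 200 nt further upstream, over 23 nt of the same piece and 2 further pieces of 112 and 65 nt.

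Where a gene had peaks at the same place in both lists, the peaks shared at least 1 edge. Of the 11 DF2 siRNA peaks, 6 (54.5%, 23.4 to 83.3%) overlapped a control peak by at least 1 base on the same strand, beside 87.5% of all DF2 siRNA peaks. Of the 7 control peaks, 6 (85.7%, 42.1 to 99.6%) overlapped a DF2 siRNA peak, beside 71.9% of all control peaks. The 5 DF2 siRNA peaks with no control counterpart were those of the 4 genes named in that list only. As the genes were chosen from these lists, nothing is read from how these overlap shares stand to those of all peaks.

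The 6 overlapping peaks formed pairs with 1 partner each. In 2 pairs, E2F2 and the stop codon peak of E2F3, the edges were identical. In the other 4, the DF2 siRNA peak contained the whole control peak and was longer by exactly 1 bin of 200 nt. The added bin lay on the 5′ side in CDK6 and CDC25A and on the 3′ side in CCND3 and at the 5′ end of E2F3.

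**Figure D2:**
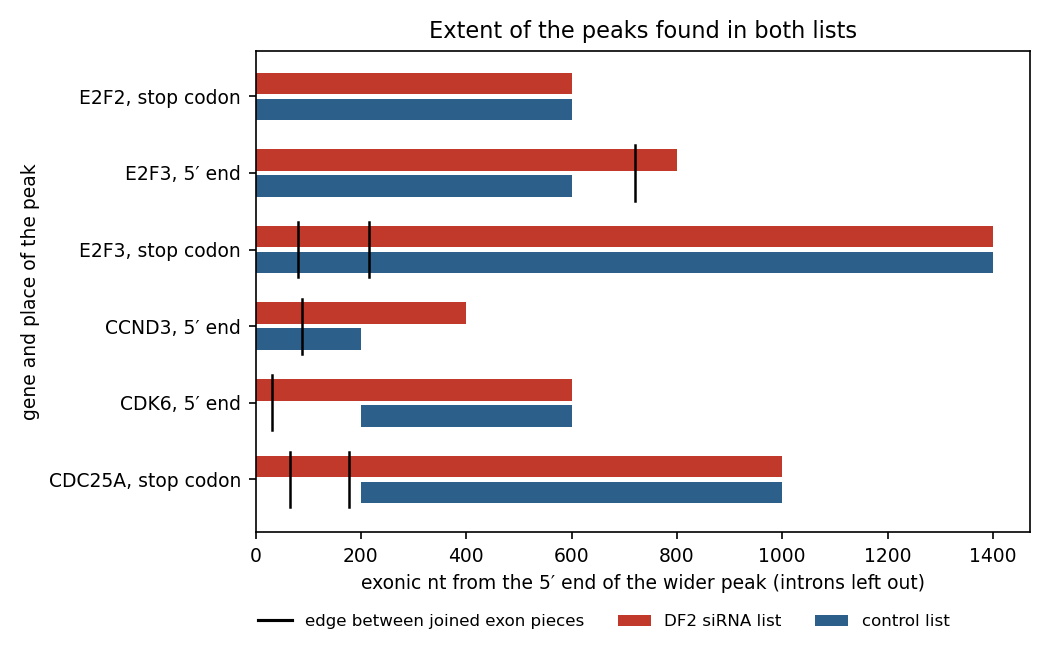
Extent of the 6 paired peaks in exonic nt from the 5′ end of the wider peak (x axis, introns left out), with the DF2 siRNA peak drawn above the control peak and black lines at edges between exon pieces. The peaks of E2F2 (600 nt) and of the E2F3 stop codon (1400 nt) coincide, and the other 4 are 200 nt longer in DF2 siRNA.

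Among all 9591 such pairs, 44.3% were identical, the DF2 siRNA peak was longer in 15.1% and the control peak was longer in 38.5%. An added length of exactly 200 nt was seen in 11.0%. The share in these genes, 4 of 6, is given as a description, since the genes were chosen with these lists known and lengths were compared only after those of these genes had been seen.

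**Figure D3:**
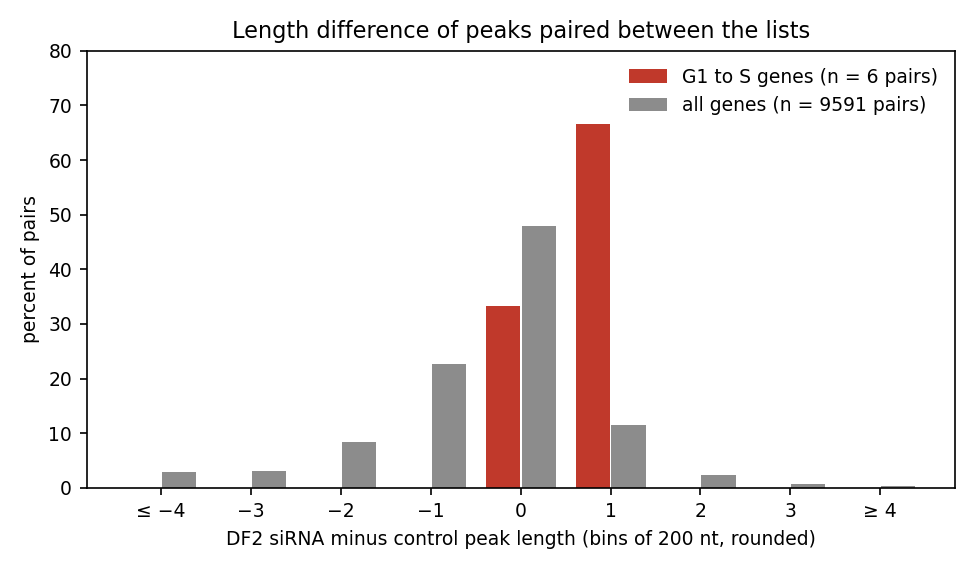
Share of pairs (y axis, percent) by the length of the DF2 siRNA peak minus that of the control peak in bins of 200 nt (x axis, rounded, with 4 or more pooled at each end), for the 6 pairs of these genes and for all 9591 pairs. In these genes 2 pairs sit at 0 and 4 at 1 bin, whereas all pairs lean towards longer control peaks.

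E2F1, CCND1, CCNE1 and CDK4 belong to the 605 genes found in the DF2 siRNA list only. For each gene the highest value was taken separately for each measure. In CCND1 the score is thus from the stop codon peak and the other 2 values from the 5′ UTR peak. Over the 605 genes, the median was 9.97 for fold enrichment (interquartile range 6.58 to 12.9), 24 for score (8 to 90) and 2.08 for −log10 FDR (1.63 to 2.99). For the 7904 genes in both lists, the highest values in the DF2 siRNA list had medians of 25.1, 119 and 7.05. E2F1, CCND1 and CDK4 lay above the median fold enrichment of the 605 genes, with 89.3%, 84.6% and 77.0% of them below. CCNE1 lay below it, with 20.5% of the genes beneath. By score, E2F1 and CCND1 lay above 92.9% and 93.6% of the 605 genes, CDK4 above 48.8% and CCNE1 above 14.4%. By −log10 FDR the order was another, with CDK4 above 85.8% of the 605 genes, E2F1 above 75.04%, CCNE1 above 69.4% and CCND1 above 67.3%. As the genes were chosen from these lists, these ranks are a description and nothing is read from them.

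Other genes of the same pathway were taken from a list of 54 cyclins, kinases, inhibitors, pocket proteins, E2F relatives, turnover factors and replication genes. Of these, 25 had a peak: 19 in both lists, 3 in DF2 siRNA only and 3 in control only, beside the 75.2%, 5.76% and 19% of all gene names with a peak. The share of all genes that have any peak was not computed. The counts here and in the groups below therefore do not show whether a group is rich or poor in peaks. The median of the best fold enrichment per gene was 22.9 over 22 genes in DF2 siRNA and 30.2 over 22 genes in control, beside 23.0 over all genes of the DF2 siRNA list and 29.1 over all genes of the control list.

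The pathway list held 9 other genes grouped with cyclins and CDKs. Of these 9 only CDK3 had a peak, in DF2 siRNA (fold enrichment 10.7, score 12), and neither CCND2 nor CDK2 nor CCNA2 had any. The lists hold no expression level, so a missing peak cannot be told from low expression. Of 7 CDK inhibitors, 4 had peaks in both lists. CDKN2B, an inhibitor of CDK4 and CDK6, was listed at 83.8 in DF2 siRNA and 91.9 in control. CDKN1A, the p53-induced inhibitor p21, had a peak in DF2 siRNA only, at 12.8 with a score of 457 and a −log10 FDR of 1.60.

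Of 10 pocket proteins and E2F relatives, 3 had peaks in both lists and 2 in control only. The 2 were the repressors E2F7 (fold enrichment 12.7, score 81, 3′ UTR) and E2F8 (8.13, score 31, coding, −log10 p of 1.42). RB1, the retinoblastoma gene, had none. E2F6, another repressor, had a peak in both lists, with a fold enrichment of 12.3 in DF2 siRNA and 31.1 in control.

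Of 10 genes of the other CDC25 phosphatases and of protein turnover, 6 had peaks in both lists and 0 in 1 list only. FZR1, an activator of the anaphase-promoting complex, was listed at 117 in DF2 siRNA and 123 in control. FBXW7, which targets cyclin E for degradation, was listed at 65.6 in DF2 siRNA and 116 in control. AMBRA1, which targets D cyclins for degradation, was listed at 69.2 in DF2 siRNA and 56.4 in control. The best peaks of all 3 were at the stop codon in both lists.

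Of 18 replication genes that E2F factors switch on, 6 had peaks in both lists. PCNA, the sliding clamp of DNA polymerase, was found in DF2 siRNA only (fold enrichment 13.9, score 298). CDC45, part of the replicative helicase, was found in control only (5.10, score 6). Both lay below the median fold enrichment of their list.

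**Figure D4:**
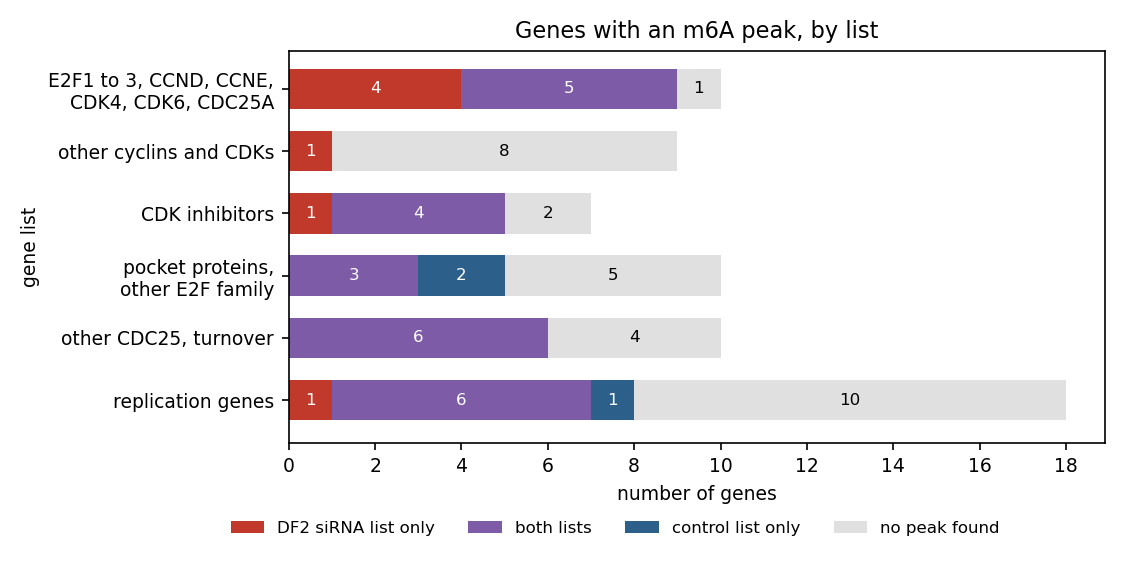
Number of genes (x axis) with a peak in the DF2 siRNA list only, in both lists, in the control list only or in neither, for the 10 genes of this account (top row) and for the 5 groups of the pathway list. The top row has 4 genes in DF2 siRNA only and 0 in control only, and the 54 others have 3 and 3.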

How the data were processed

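The authors deposited 1 m6A peak list per condition, tied by the labels to both immunoprecipitates of that condition. HISAT2 and hg38 are named in the submitters' processing notes. The peak caller, settings and annotation, and whether strand was used, were not given in the sources used here. Per the file headers, each peak has a deposited fold enrichment (a ratio), a deposited score of unstated meaning, and a deposited −log10 value. That value is of an FDR for DF2 siRNA but of a p-value for control. These are the authors' values, were used only to describe and rank peaks within a list, and depend on peak length and unknown depth.

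Coordinates count from 1. Block sizes of minus-strand peaks are listed in transcript order: reversed, 100% of peaks with several blocks ended at the stated end in both lists, against 51.8% (DF2 siRNA) and 44.4% (control) as listed. They were therefore reversed. Overlap needs 1 shared exonic base on the same strand. A 1 to 1 pair is 1 peak of each list that overlap each other, where neither overlaps a further peak of the opposite list. Overlap within a list was not checked. Distances to gene ends use RefSeq genes of GRCh38.p14. Peaks with no gene name (42 in DF2 siRNA, 57 in control) were left out of gene counts. The 10 genes were named in full. From the pathway list the rule named every gene found in 1 list only and the 3 of highest fold enrichment per list, and CCND2, CDK2, CCNA2, RB1 and E2F6 were named after their values were seen. Genes and lists were chosen with earlier results of these data known. The comparison of lengths within pairs and the separation of the motif forms were chosen after the values of these genes were seen. Overlap counting was tested on the control list against a copy of itself in which randomly chosen peaks were masked. Block decoding was tested on made-up blocks. Software was scipy 1.17.1, pandas 2.3.3, numpy 2.4.6 and matplotlib 3.10.9 under Python 3.11.15.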

Additional observations from a re-analysis of the deposited data

How the results depend on the processing

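No paired analysis was possible because each condition has 1 peak list for both of its libraries, and no library could be left out. Of 55 recomputed values, 40 kept their value within 1.5 times or within their interval. Among these 40 were all overlap shares under reciprocal overlap of 50%, without strand, over whole spans and, chosen after seeing the data, with block sizes as listed. The intervals are wide, such as 23.4 to 83.3% for the DF2 siRNA overlap share and 42.1 to 99.6% for the control one. The count of 40 is therefore a loose check and does not show that the results are robust. With p or FDR 100 times smaller, 3 genes were in both lists (5 as reported) and 3 in DF2 siRNA only, now CDK4, CCND3 and CDK6, while E2F1, CCND1 and CCNE1 lost their peaks. CCND3 and CDK6 moved because their control peaks fell below this limit. By the headers the limit is on an FDR in DF2 siRNA but on a p in control, so it may not be alike in both lists. No difference between the lists is read from it. The peaks kept numbered 7 in DF2 siRNA and 4 in control. In the upper 50% by fold enrichment, 3 genes were in both lists and 2 in DF2 siRNA only (CCND3 and CDK6, with 4 as reported), with 6 and 4 peaks. Under each of these limits, 100% of the control peaks (4 of 4) overlapped a DF2 siRNA peak and 100% carried a stop codon label. The peak at the 5′ end of E2F3 was among these 4. Shares over all peaks under these limits are not given, so nothing is read from them. With equal list lengths, 5 genes were in DF2 siRNA only, CCND3 having joined them, and 1 pathway gene was in control only (3 as reported). In peaks of at most 400 nt, stop codon shares were 16.7% in DF2 siRNA (1 of 6) and 0% in control (0 of 2). In the upper 50%, an alternative chosen after seeing the data, 2 of 4 pairs were longer in DF2 siRNA, against 4 of 6. None of the 10 genes was in control only under these limits, with equal list lengths or with older gene names, the alternatives for which genes were counted by list. The genes were chosen from these lists and the shares of all genes under these alternatives are not given. Nothing is therefore read from this count. Causes were not tested beyond fewer peaks being kept.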

Other observations

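CUL3, a scaffold of ubiquitin ligases that acts on cyclin E, had a peak in each list but at different places. In DF2 siRNA cells it was a 5′ UTR peak with a fold enrichment of 9.71 (score 20), and in control cells a stop codon peak with 17.7 (score 223). The 19 pairs of overlapping peaks in the 54 pathway genes were identical in 11 cases, longer in DF2 siRNA in 2 and longer in control in 6. In the name-based count RRM2, the small subunit of ribonucleotide reductase, had no peak, yet both lists held peaks named C2orf48, which RefSeq lists as another name of RRM2. With older names counted, 20 pathway genes were in both lists.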
